A study of Mus musculus with 13 samples.

Results

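The MAP kinase phosphatases of the dual-specificity (Dusp) family were examined in tumour cell lines with and without JNK. The 10 genes were chosen by name (Dusp1, Dusp2, Dusp4, Dusp5, Dusp6, Dusp7, Dusp8, Dusp9, Dusp10 and Dusp16) from the 23845 genes measured, and 9 of them had enough reads to be among the 13058 genes tested. Dusp2 did not. RNA-seq had been done on 13 cell lines grown from mammary tumours of FVBN/J mice. The study asked how blocking the JNK pathway bears on mammary cancer driven by HER2, a receptor tyrosine kinase. The labels give 6 lines as wild type (WT) and 7 as JNK knockout, and name neither the JNK genes or exons removed, nor the promoter of any Cre or oncogene, nor the age of the animals. All lines of both groups were started on collagen I in 2% serum and later kept on plain dishes with 10% serum, EGF at 20 ng/ml and insulin at 10 µg/ml, with penicillin and streptomycin throughout. EGF is itself an activator of the ERK pathway, so every line was measured under that stimulus.

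These enzymes remove phosphate from both the threonine and the tyrosine of the activation loop of MAP kinases and so switch the kinases off. Dusp8, Dusp10 and Dusp16 act mainly on JNK and p38. Dusp1, Dusp2, Dusp4 and Dusp5 are nuclear enzymes whose genes are induced by growth factors or stress, with Dusp5 specific for ERK. Dusp6, Dusp7 and Dusp9 prefer ERK, and Dusp6 is known as a feedback gene whose transcription follows ERK activity. Because several of these genes are themselves switched on by the kinases they restrain, their transcript levels are often used as a readout of the pathway.

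The starting point of the comparison was the level of the kinases. Mapk8, the gene of JNK1, ranged from 24.0 to 37.3 CPM (reads of the gene scaled to a library of common size) in WT lines and from 4.33 to 8.33 CPM in knockout lines. Mapk9, the gene of JNK2, ranged from 55.0 to 73.1 CPM in WT lines and from 8.90 to 24.7 CPM in knockout lines. Mapk10, the gene of JNK3, stayed at or below 0.143 CPM in every line. The labels therefore matched the level of Mapk8 and Mapk9 in all 13 lines, although gene counts include transcripts that have lost an exon. Totals per line were 38298602 to 46689809 expected counts. Markers of epithelium summed to 7122 to 9760 TPM (transcript abundance corrected for length) in WT lines and 6276 to 19410 TPM in knockout lines, the highest in knockout replicate 2. Markers of fibroblasts summed to 8.12 to 252.5 TPM in WT lines, the highest in WT replicate 3, and to 2.11 to 34.9 TPM in knockout lines. Immune markers summed to 3.57 to 33.6 TPM, with Cd3g at 0 in all lines, and endothelial markers to 0.03 to 1.19 TPM. Single markers moved between the groups. Of 10 epithelial markers 2 rose, the basal keratin genes Krt5 (log2 fold change 12.11) and Krt14 (4.65), and 2 fell, the luminal keratin genes Krt18 (-1.26) and Krt8 (-0.97). Of 8 tested fibroblast markers 2 fell, Col1a1 (-4.40) and Col1a2 (-6.72), with overlapping groups. Among WT lines Col1a1 had a median of 7.54 and a highest level of 184 CPM, and Col1a2 a median of 3.15 and a highest of 160 CPM. Of these 8 markers 7 had a negative log2 fold change, with a median of -2.255. The part of these differences in the phosphatase levels was not tested. Replicates are separate lines. The titles of WT replicates 4 and 5 share a number, and where lines share an animal the p-values measure only the spread between lines.

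Promoter sequence is shown for the 2 genes that passed the test, Dusp8 and Dusp16, and for Dusp1, which shares with Dusp8 a cyclic AMP response element (CRE), the TGACGTCA motif that ATF and CREB factors and ATF-Jun pairs bind. The sequences are from RefSeq promoter windows on build GRCm38.p6, which were given for 8 of the 10 genes. All 3 lie on the minus strand and are written 5′ to 3′ along the gene, with each CRE in capitals. The Dusp8 stretch is chr7:142095285-142095534 and the Dusp16 stretch is chr6:134792629-134792878, each the 250 bases before the window's transcript start, and both lie inside the span that RefSeq gives for the gene. The Dusp1 stretch is chr17:26508568-26508655, 88 bases around its CRE.
Dusp8: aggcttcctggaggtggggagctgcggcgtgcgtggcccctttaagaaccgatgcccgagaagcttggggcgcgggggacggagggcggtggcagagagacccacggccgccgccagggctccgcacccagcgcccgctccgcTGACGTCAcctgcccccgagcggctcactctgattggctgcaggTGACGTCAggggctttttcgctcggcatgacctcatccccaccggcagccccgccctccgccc
Dusp16: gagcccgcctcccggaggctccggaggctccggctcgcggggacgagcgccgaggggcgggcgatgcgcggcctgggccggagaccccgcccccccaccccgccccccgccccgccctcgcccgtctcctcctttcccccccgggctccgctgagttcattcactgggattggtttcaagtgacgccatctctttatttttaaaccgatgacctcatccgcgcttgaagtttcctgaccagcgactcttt
Dusp1: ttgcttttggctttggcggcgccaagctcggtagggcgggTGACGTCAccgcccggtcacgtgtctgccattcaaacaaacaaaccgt
The CREs of Dusp8 begin 107 and 63 bases before the start, and that of Dusp1 begins 143 bases before it. The motif is its own reverse complement, so both strands give the same matches. It was in 2 of the 8 windows, against 1.79% of all 32851 windows of 250 bases before and 50 after a start, and 2 or more copies were in the Dusp8 window and 13 windows in all (0.0396%). The Dusp16 window held none, and neither the AP-1 motif TGANTCA (7.81% of all windows) nor the ETS motif CCGGAAG (8.86%), searched on both strands, was in any of the 8. The 250 bases before the start were 71.6% G and C in Dusp8 and 68.4% in Dusp16, against a median of 52.4%. A match describes letters in these windows and is no evidence of binding.

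Of the 9 genes tested, 2 fell in the knockout lines and 0 rose, by edgeR's quasi-likelihood test with adjustment over all genes. Both that fell, Dusp8 and Dusp16, encode phosphatases of JNK and p38. Over all genes tested 4.17% fell and 4.33% rose. At an unadjusted p under 0.05, 5 of the 9 were lower and 1 was higher, against 12.6% and 13.7% of all genes tested. DESeq2 called 4 of the 9 lower, against 7.48% of all genes, and 0 higher, against 8.65%. With limma-voom 3 were lower, against 3.96%, and 0 higher, against 3.39%. With sample weights in limma-voom 5 were lower, against 10.8%, and 0 higher, against 10.9%. The median log2 fold change (knockout minus WT) of the 9 was -1.28, against 0.0076 over all genes tested, and 7 of the 9 values were negative. On log2(TPM + 1) the calls over all genes were 22.3% higher rather than 50.9%, and the median of all genes was -0.19. The same setting gave a median of -1.17 over the 9. Dusp8 and Dusp16 were called lower there as well, together with Dusp1, where 7.64% of all genes were called lower and 2.19% higher. In bulk RNA, fewer cells that express a gene and less RNA of it per cell cannot be told apart.

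**Figure D1:**
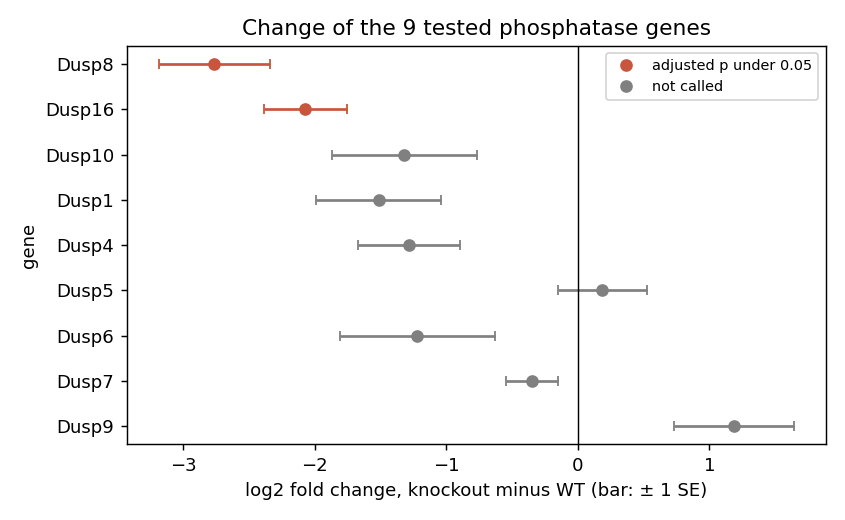
Log2 fold change of the 9 tested MAP kinase phosphatase genes (knockout minus WT, horizontal axis) with bars of 1 approximate standard error, from edgeR over 6 WT and 7 knockout lines. Dusp8 at -2.76 and Dusp16 at -2.07 passed the test, and Dusp5 and Dusp9 are the values above 0.

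Dusp8, a phosphatase of JNK and p38 best known from brain and heart, showed the largest difference. Its lowest, median and highest levels were 16.7, 33.4 and 55.7 CPM in WT lines and 1.83, 5.27 and 11.7 CPM in knockout lines. Every knockout line lay below every WT line, in CPM and in TPM. A separation of this kind, all knockout lines below all WT lines in CPM, occurred in 1.97% of genes tested. The means were 35.7 ± 13.8 CPM (SD, n = 6) and 5.25 ± 3.36 CPM (SD, n = 7), a 6.79-fold lower level in knockout lines (log2 fold change -2.76, SE 0.43, edgeR adjusted p = 0.0031). The gene lies on chromosome 7 from 142079487 to 142095907. The groups held 9362 and 1513 reads of it, so counting error was small beside the spread among lines. The WT line nearest to the knockout range was replicate 3, and the knockout line nearest to the WT range was replicate 4.

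Dusp16, a JNK phosphatase that also acts on p38, stood at a lowest, median and highest of 86.9, 137 and 211 CPM in WT lines and 17.1, 37.5 and 56.9 CPM in knockout lines. Again no knockout line reached the lowest WT line, in CPM or TPM. The means were 145 ± 47.9 and 34.5 ± 15.4 CPM, a 4.20-fold lower level (log2 fold change -2.07, SE 0.31, edgeR adjusted p = 0.0030). Dusp16 lies on chromosome 6 from 134715468 to 134807063. By p-value Dusp16 ranked 61st and Dusp8 67th of all genes tested. Both were called in each of 25 alternative fits, also with WT replicates 4 and 5 summed (adjusted p of 0.0076 for Dusp8 and 0.0081 for Dusp16), with log2 fold changes of -3.09 to -2.43 for Dusp8 and -2.34 to -1.94 for Dusp16.

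**Figure D2:**
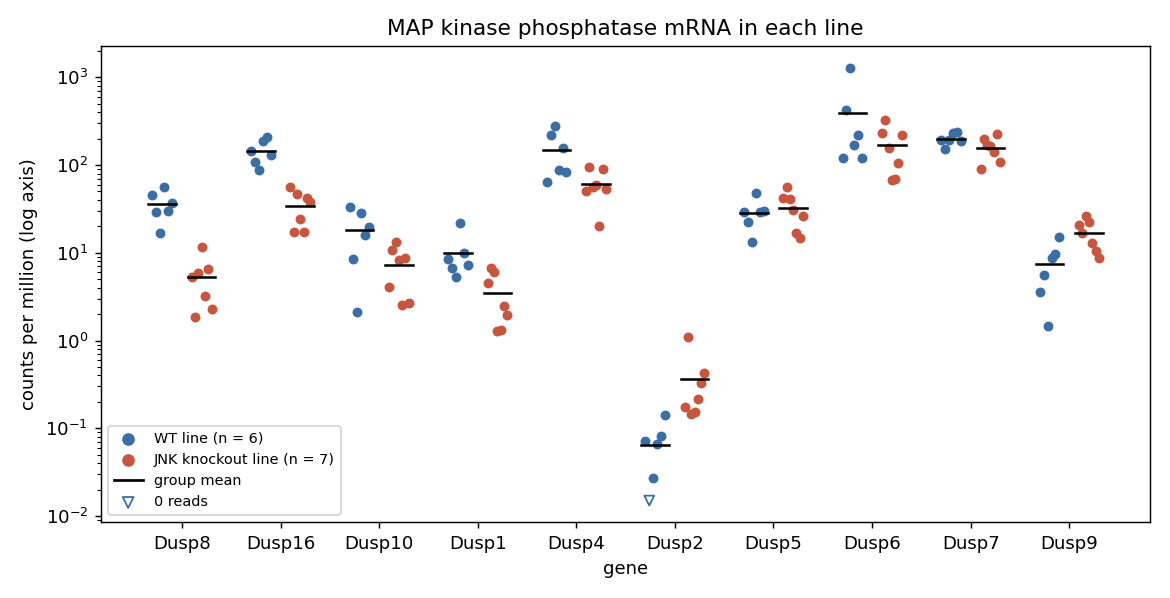
CPM of the 10 genes in each of the 6 WT and 7 knockout lines (points, logarithmic vertical axis, genes along the horizontal axis), with bars at the group means and an open triangle for a line with 0 reads. The groups are apart for Dusp8 and Dusp16, whose knockout lines reach at most 11.7 and 56.9 CPM, while single lines stand far out for Dusp1 and Dusp6 among WT lines and Dusp2 among knockout lines.

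Genes beside the called members did not pass the test. None of the 6 tested neighbours of Dusp8, the nearest 3 on each side at 18.4 to 447 kb, was called, and their log2 fold changes ran from -0.20 to 0.96. None of the 6 neighbours of Dusp16, at 23.1 to 277 kb, was called either, with log2 fold changes from -2.18 for Mansc1 to 0.81 for Gpr19 and a lowest edgeR adjusted p of 0.092. Cdkn1b, the cell cycle inhibitor gene that lies 113 kb from Dusp16, had a log2 fold change of -0.69. Around all 10 genes, 3 of 60 neighbours were called.

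Dusp10, the third phosphatase of JNK and p38, did not pass the test. Its lowest, median and highest levels were 2.13, 17.9 and 33.2 CPM in WT lines and 2.57, 8.38 and 13.3 CPM in knockout lines. The ranges overlapped through WT replicate 3, which lay below every knockout line, while 4 WT lines lay above all of them. The means were 18.0 ± 11.7 and 7.22 ± 4.16 CPM (log2 fold change -1.32, SE 0.55, edgeR adjusted p = 0.15). It was called in 1 of 25 alternative fits, limma-voom with sample weights (adjusted p = 0.027).

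Whether these 3 genes moved unequally was tested on their ratios within each line. The ratios were chosen with earlier results of these data known, so their p-values do not allow for that choice. The log2 ratio of Dusp8 to Dusp10 was 1.32 ± 0.90 in WT lines (range 0.47 to 2.95) and -0.45 ± 1.07 in knockout lines (range -2.51 to 0.47). The difference of -1.78 passed the exact permutation test, two-sided, over 1716 splits of the lines (p = 0.0017, adjusted over 3 ratios 0.0052). The smallest p these splits can give is 0.00058. For Dusp16 to Dusp10 the ratio was 3.38 ± 1.13 in WT and 2.36 ± 1.15 in knockout lines, and the difference of -1.02 did not pass (exact permutation p = 0.15, adjusted 0.15). It was -0.63 without WT replicate 3. For Dusp16 to Dusp8 the ratio was 2.05 ± 0.46 and 2.82 ± 0.94, a difference of 0.76 (exact permutation p = 0.098, adjusted 0.15). Without knockout replicate 4, in which Dusp8 was at its highest, this last difference was 1.06 (adjusted exact permutation p = 0.013), and on log2(TPM + 1) it was 0.20. The ratio of Dusp8 to Dusp10 was thus lower in knockout than in WT lines. It was still above 0 in knockout replicates 1 (0.35), 4 (0.47) and 5 (0.33). An unequal change of Dusp8 and Dusp16 was not shown with all lines.

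**Figure D3:**
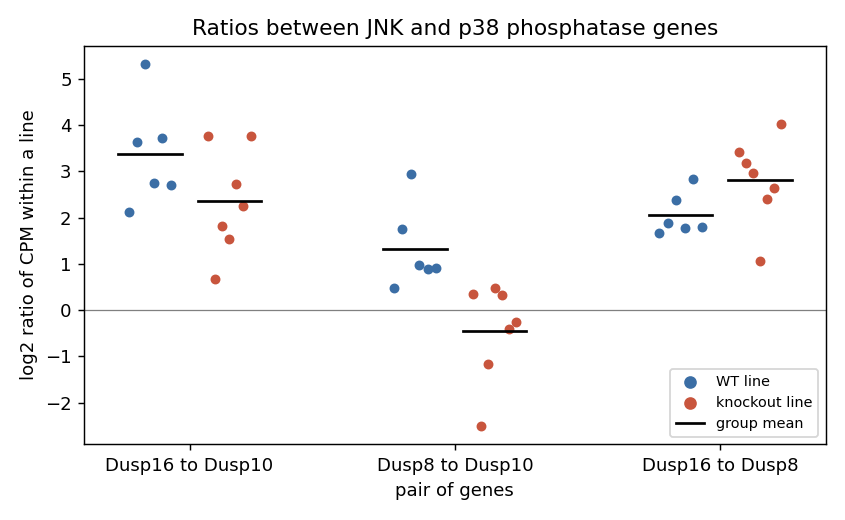
Log2 ratio of CPM between pairs of JNK and p38 phosphatase genes in each line (points, vertical axis), for 6 WT and 7 knockout lines, with lines at the group means. Dusp8 to Dusp10 lies between 0.47 and 2.95 in WT lines and between -2.51 and 0.47 in knockout lines.

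Among the inducible nuclear phosphatases, Dusp1 and Dusp4 were lower in most knockout lines without passing the test. Dusp1, an early gene of stress and growth factor responses that acts on p38, JNK and ERK, had a lowest, median and highest of 5.28, 7.86 and 22.0 CPM in WT lines and 1.30, 2.44 and 6.78 CPM in knockout lines. In 5 of the 7 knockout lines it lay below every WT line. Its means were 9.94 ± 6.12 and 3.48 ± 2.30 CPM (log2 fold change -1.51, SE 0.48, edgeR adjusted p = 0.065). Of 25 alternative fits 7 called it, among them DESeq2 (adjusted p = 0.016), limma-voom (0.044), and the fit without knockout replicate 2 (0.040), whose level was the highest among knockout lines. The gene lies on chromosome 17 from 26505591 to 26508472.

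Dusp4, a nuclear phosphatase of ERK and JNK and a target of ERK signalling, had a lowest, median and highest of 64.4, 122 and 277 CPM in WT lines and 20.2, 56.4 and 95.3 CPM in knockout lines. In 5 of the 7 knockout lines it was below the lowest WT line, and 3 WT lines were above every knockout line. Its means were 148 ± 85.1 and 60.6 ± 25.3 CPM (log2 fold change -1.28, SE 0.39, edgeR adjusted p = 0.056). DESeq2 called it (adjusted p = 0.012), as did the fits without WT replicate 1 (0.044) and without knockout replicate 2 (0.045). With sample weights in limma-voom its log2 fold change was -0.73 and not called.

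Dusp5, a nuclear phosphatase specific for ERK, did not differ in a stable direction. It had a lowest, median and highest of 13.2, 29.0 and 48.1 CPM in WT lines and 14.6, 30.9 and 56.9 CPM in knockout lines, so the ranges nearly coincided. The log2 fold change was 0.18 (SE 0.34, edgeR adjusted p = 0.77), and it was -0.0062 without knockout replicate 2 and -0.07 on log2(TPM + 1).

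Dusp2, a phosphatase best known from activated immune cells, was close to absent. It had 0 to 6 reads per WT line, 17 in all, and 6 to 42 reads per knockout line, 103 in all. Its lowest, median and highest levels were 0, 0.0684 and 0.142 CPM in WT lines and 0.144, 0.216 and 1.10 CPM in knockout lines. The ranges touched in reads and also in TPM, where they met at 0.17, and knockout replicate 2 held 42 of the 103 reads. Fitted without a filter on low counts, its log2 fold change was 2.42 (edgeR adjusted p = 0.079).

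The phosphatases that prefer ERK did not pass the test in either direction. Dusp6, the cytoplasmic ERK phosphatase, had the highest mean TPM of the family in both groups. Its lowest, median and highest levels were 119, 195 and 1291 CPM in WT lines and 66.8, 157 and 323 CPM in knockout lines. The ranges overlapped widely and the WT mean rested on replicate 3. The means were 391 ± 455 and 168 ± 95.7 CPM (log2 fold change -1.22, SE 0.59, edgeR adjusted p = 0.21), and without WT replicate 3 the log2 fold change was -0.33 (adjusted p = 0.68). With sample weights in limma-voom it was -0.05 over all lines. WT replicate 3 also had the highest level of the ERK target genes Etv5 (1166 CPM, against 94.1 to 260 CPM in other WT lines) and Spry4 (67.1 CPM, against 6.32 to 10.9 CPM). Its sum of fibroblast markers was the highest too. Of the 18 genes of ERK feedback and output, it was also the highest WT line for Spred1, Spred2, Etv1, Etv4, Ier3, Phlda1 and Ccnd1. It was the lowest WT line for Fosl1 (2.56 CPM), Lif (26.1 CPM), Myc (135 CPM), Rasa2 (17.6 CPM) and Spry1 (44.2 CPM). The part of these in the level of Dusp6 was not tested.

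Dusp7, a close relative of Dusp6, had the lowest coefficient of variation of the 10 genes among WT lines. It had a lowest, median and highest of 151, 194 and 237 CPM in WT lines and 91.2, 163 and 226 CPM in knockout lines, with 3 knockout lines below every WT line. The log2 fold change was -0.35 (SE 0.20, edgeR adjusted p = 0.28), and -0.57 with sample weights in limma-voom (adjusted p = 0.039). That coefficient was 15.7%, against 33.0% for Dusp16 and 116% for Dusp6.

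Dusp9, an ERK phosphatase best known from placenta and embryonic stem cells, was the tested member with the most positive value. It had a lowest, median and highest of 1.48, 7.16 and 15.3 CPM in WT lines and 8.72, 16.7 and 26.0 CPM in knockout lines. In 4 of 7 knockout lines it was above every WT line, and 4 WT lines were below every knockout line. The means were 7.40 ± 4.93 and 16.9 ± 6.52 CPM (log2 fold change 1.19, SE 0.45, edgeR adjusted p = 0.12), and it was called in 0 of 25 alternative fits.

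Levels of different genes were compared per length, in TPM. The 10 genes summed to 637 ± 287 TPM in WT lines (387 to 1182) and 305 ± 105 TPM in knockout lines (122 to 473). The lowest sum was in knockout replicate 5, where these genes had 0.431 TPM per CPM, against 0.614 to 0.685 in the other lines. Against the other lines, its sum is thus lower in TPM than in CPM. In WT lines the order of mean TPM was Dusp6 at 256, Dusp7 at 116, Dusp4 at 116, Dusp5 at 54.0, Dusp16 at 52.4, Dusp8 at 13.7, Dusp10 at 12.9, Dusp1 at 10.2, Dusp9 at 5.22 and Dusp2 at 0.08. Neighbours in this order often changed places between lines. Dusp6 was above Dusp7 in 3 of 6 WT lines and Dusp8 was above Dusp10 in 5 of 6, while Dusp16 was above Dusp8 in all 6. In knockout lines the order was Dusp6 at 98.9, Dusp7 at 79.1, Dusp5 at 53.5, Dusp4 at 42.6, Dusp16 at 10.9, Dusp9 at 10.4, Dusp10 at 4.52, Dusp1 at 3.11, Dusp8 at 1.78 and Dusp2 at 0.391. There Dusp4 was above Dusp16 in all 7 lines, and Dusp16 was above Dusp9 in only 3 of 7.

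Each member's share of the family's summed TPM was also taken. Dusp16 made up 9.67 ± 4.46% of the summed TPM in WT lines and 3.72 ± 1.38% in knockout lines, and Dusp8 2.63 ± 1.49% and 0.637 ± 0.464%. Dusp6 held a similar mean share in both groups, 33.2 ± 19.5% and 30.9 ± 11.5%. Dusp5 held 10.2 ± 5.39% and 17.2 ± 4.59%, and Dusp9 1.05 ± 0.882% and 3.60 ± 1.53%. These shares depend on one another and were not tested.

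**Figure D4:**
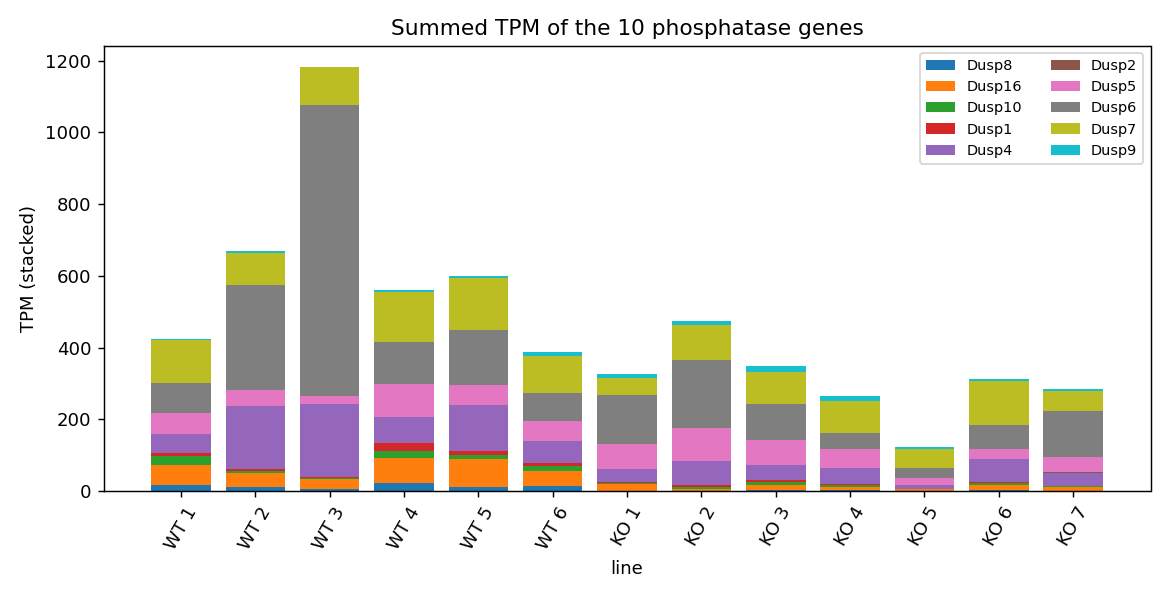
TPM of the 10 genes stacked in each of the 6 WT and 7 knockout lines (vertical axis from 0). The highest sum, 1182 TPM, is that of WT replicate 3, of which Dusp6 makes up 68.5%. The lowest, 122 TPM, is that of knockout replicate 5, which also has the fewest TPM per CPM of these genes.

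Some lines were at the extreme of their group for several members. WT replicate 3 had the highest level of Dusp4 and Dusp6 among WT lines and the lowest of Dusp1, Dusp5, Dusp8, Dusp9, Dusp10 and Dusp16. Against the WT mean of log2 CPM it was 2.32 higher for Dusp6 and 2.62 lower for Dusp10 (a deviation of -2.62). Knockout replicate 2 had the highest level among knockout lines of Dusp1, Dusp2, Dusp4, Dusp5 and Dusp6, and the lowest of Dusp8 and Dusp16. Its summed epithelial markers were the highest of the 13 lines, at 19410 TPM. The part of this in its phosphatase levels was not tested. Knockout replicate 5 was lowest for Dusp4 and Dusp10. Apart from these lines, the highest level of Dusp1, Dusp5 and Dusp8 among WT lines was in replicate 4.

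**Figure D5:**
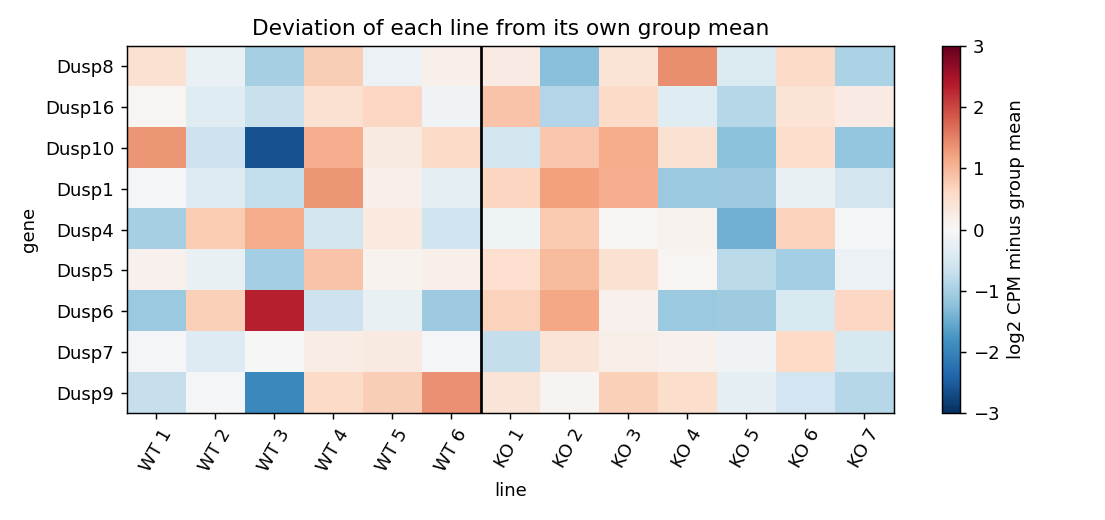
Deviation of log2 CPM from the mean of its own group for each of the 9 tested genes (rows) in each of the 13 lines (columns), on a colour scale from -3 to 3. WT replicate 3 holds the most extreme values, 2.32 for Dusp6 and -2.62 for Dusp10.

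Pairs of members were compared by Pearson's r of log2 CPM over the 13 lines after the group means were subtracted, as a description. Over 36 pairs of tested members, Dusp1 and Dusp5 had r = 0.78 and Dusp4 and Dusp6 had r = 0.74. Dusp6 ran against Dusp8 (r = -0.69) and against Dusp10 (r = -0.60). The last of these came from the WT lines (r = -0.97, against 0.10 in knockout lines). Dusp8 and Dusp16, the members that passed the test, had r = 0.45, and 0.098 without WT replicate 3 and knockout replicate 2. The points share library and depth.

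The 9 tested members were compared in the same way with 18 genes of ERK feedback and output. The closest pairs were of Dusp10, a phosphatase of JNK and p38, with Rasa2, a Ras GTPase-activating protein gene (r = 0.95, and 0.92 without WT replicate 3 and knockout replicate 2), and with Fosl1, an AP-1 subunit gene (0.91, and 0.83). Dusp10 ran against Ier3, with r = -0.79 (-0.57). Dusp4 had r = 0.89 (0.83) with Spred1, an inhibitor of Ras signalling, and -0.71 (-0.60) with Myc. Dusp6 had r = 0.85 (0.73) with Spred1, 0.82 (0.57) with the ETS factor gene Etv5 and 0.76 (0.80) with the early response gene Egr1. It ran against Myc (-0.69, and -0.43) and Fosl1 (-0.68, and -0.58). Some of these values of Dusp6 came mainly from the WT lines. With Fosl1 r was -0.97 in WT lines and 0.24 in knockout lines, and with Myc -0.90 and -0.27. With Etv5 it was 0.97 in WT and 0.41 in knockout lines, while with Egr1 it was 0.76 and 0.78. Dusp5 had r = 0.82 (0.87) with the Eph receptor gene Epha2. Dusp16 ran against Spry4, with r = -0.73 (-0.55). Values of both signs thus occurred, for members of either substrate preference, and all are descriptions over the same 13 lines.

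Likeness to the called members was sought among 10339 tested genes with a mean of at least 5 CPM. Predicted genes (Gm, Rik and LOC names) were left out. Those most like Dusp8 over the 13 lines, after subtraction of the group means, were Rhobtb3 (r = 0.93), Cmtm4 (r = 0.91) and Abhd8 (r = 0.90). Those most like Dusp16 were Rffl, an E3 ubiquitin ligase gene (r = 0.90), Dapp1, a signalling adaptor gene (r = 0.89), and Birc3, an inhibitor of apoptosis gene (r = 0.88). With any single line left out, r stayed at or above 0.84 for these 6 genes. None of the 6 was itself called between the groups, with edgeR adjusted p from 0.085 for Rhobtb3 to 1.0 for Birc3. They are the extremes of many candidates.

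Other genes of the pathway are given by list, beside the 4.17% of all genes that fell and the 4.33% that rose. At an unadjusted p under 0.05 in edgeR, 12.6% of all genes tested were lower and 13.7% higher. By DESeq2 the shares were 7.48% lower and 8.65% higher, and by limma-voom 3.96% and 3.39%. The counts of every list below are to be read beside these shares. Of 11 tested MAP kinase genes 0 rose and 4 fell, and at an unadjusted p under 0.05 the counts were also 0 and 4, as they were by DESeq2 and limma-voom. These were Mapk8, Mapk9, Mapk4 and Mapk14. Mapk8 and Mapk9 are genes of JNK, the kinase named in the knockout label, so their fall is not a separate result. Mapk4, the gene of the atypical kinase ERK4, averaged 4.55 ± 1.58 CPM over WT and 0.185 ± 0.127 CPM over knockout lines (edgeR adjusted p = 0.0020), with every knockout line below every WT line. Mapk14, the gene of p38α and a substrate of Dusp8, Dusp10 and Dusp16, was named after its values were seen. It was 110 ± 8.09 and 83.6 ± 11.8 CPM, a 1.32-fold lower level (edgeR adjusted p = 0.037), and was called in 3 of 13 fits that left out a line. It was not called where WT replicates 4 and 5 were summed to 1 line (adjusted p = 0.055). Mapk3, the gene of ERK1, had a log2 fold change of 0.04 and was not called. Of 7 tested MAP2 kinase genes edgeR called 0, with 1 higher and 1 lower at an unadjusted p under 0.05, while DESeq2 called 1 higher and limma-voom 0. Of 26 tested genes of JNK scaffolds and upstream kinases edgeR called 0, with 3 higher and 4 lower at an unadjusted p under 0.05. DESeq2 called 2 higher and 3 lower, and limma-voom 0.

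The atypical dual-specificity phosphatases, small enzymes of the same fold that lack the MAP kinase docking domain, were the nearest comparison group. The list also held the cofilin phosphatase genes Ssh1, Ssh2 and Ssh3, which this description does not cover. Of 13 tested genes of the list, 0 rose and 3 fell, with a median log2 fold change of 0.01. At an unadjusted p under 0.05, 1 was higher and 3 lower. DESeq2 called 3 lower, limma-voom 2 lower, and neither called any higher. Dusp22, a phosphatase known for its effect on JNK signalling, had a lowest, median and highest of 15.9, 18.1 and 34.9 CPM in WT lines and 2.25, 6.68 and 10.6 CPM in knockout lines, with no overlap. The means were 20.8 ± 7.08 and 6.51 ± 3.08 CPM (log2 fold change -1.67, SE 0.34, edgeR adjusted p = 0.012). Dusp3, a phosphatase of ERK and JNK, had a lowest, median and highest of 41.7, 64.1 and 73.2 CPM in WT lines and 19.9, 29.4 and 47.4 CPM in knockout lines, which overlapped. Its log2 fold change was -1.01 (SE 0.21, edgeR adjusted p = 0.012). Dusp22 and Dusp3 were called in all 25 alternative fits. Ssh2, a cofilin phosphatase gene, was 1.63-fold lower (edgeR adjusted p = 0.047) and was called in 1 of 13 fits that left out a line and not with WT replicates 4 and 5 summed (adjusted p = 0.073). Of 7 tested other phosphatases that act on MAP kinases edgeR called 0, with 0 at an unadjusted p under 0.05 and 0 by DESeq2 and limma-voom.

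Of 18 tested genes of ERK feedback and output 1 rose and 3 fell, with a median log2 fold change of -0.41. At an unadjusted p under 0.05, 1 was higher and 6 lower, and DESeq2 and limma-voom each called 1 higher and 3 lower. The genes called lower were not the same in each. DESeq2 gave no adjusted p for Spry4, which was called in all 24 alternatives that gave one, and limma-voom did not call Etv5. Ier3, an early response gene, was lower, at 290 ± 155 CPM over WT lines and 105 ± 20.6 CPM over knockout lines (edgeR adjusted p = 0.0068). Spry4, a feedback inhibitor of receptor tyrosine kinase signalling, had a lowest, median and highest of 6.32, 8.59 and 67.1 CPM in WT lines and 0.0999, 0.460 and 2.38 CPM in knockout lines, so the groups did not overlap (edgeR adjusted p = 0.0083). Myc, a growth-promoting transcription factor gene, was higher, at 187 ± 34.1 against 304 ± 35.2 CPM (edgeR adjusted p = 0.010; 0.053 on log2(TPM + 1)). The fourth called gene, Etv5, named after its values were seen, had a log2 fold change of -1.97 with all lines and -0.85 without WT replicate 3. It was called in 3 of 13 fits that left out a line and in 11 of 25 alternatives, and its adjusted p was 0.12 by limma-voom.

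Of 18 tested AP-1 and ATF factor genes 1 rose and 1 fell, and at an unadjusted p under 0.05 3 were higher and 5 lower. DESeq2 called 2 higher and 1 lower, and limma-voom 1 higher and 0 lower. Junb, an AP-1 subunit gene, averaged 228 ± 51.5 CPM over WT lines and 372 ± 48.9 CPM over knockout lines (edgeR adjusted p = 0.019; 0.10 on log2(TPM + 1)). Atf3, a stress-induced factor whose protein family binds the CRE, was 7.15 ± 4.56 and 1.96 ± 0.724 CPM (edgeR adjusted p = 0.030), and it was called in 6 of 13 fits that left out a line and not with WT replicates 4 and 5 summed (adjusted p = 0.056).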

How the data were processed

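RNA-seq of 13 lines (6 WT, 7 JNK knockout, grouped by the labels' genotype) was used. The authors deposited expected counts and TPM per gene, made with RSEM after trimming with cutadapt, with builds mm10 and GRCm38, per the submitters' processing notes. Versions, annotation and strand use: not given in the sources used here. Members, gene lists and ratios were chosen with earlier results of these data known. Expected counts (38298602 to 46689809 per line) were rounded, filtered with filterByExpr, scaled by TMM and tested with edgeR 4.0.16 in R 4.3.3 (quasi-likelihood F test, group as the only term, Benjamini-Hochberg over 13058 genes, threshold 0.05). CPM uses the TMM-scaled library. The SE, an approximation, is the size of the log2 fold change over the square root of F. The script was tested on simulated data. Ratios used log2 CPM with a prior count of 2. TPM, as deposited, was used for levels between genes and, with limma 3.58.1 and pseudocounts of 1 and 0.1, as an alternative test; so were DESeq2 1.42.0, limma-voom, other scalings and filters, and leaving out lines. Named were all members, of each list the called genes lowest in adjusted p (at most 3), and the 3 genes most like each called member. Gene positions are from RefSeq on GRCm38.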

Additional observations from a re-analysis of the deposited data

Results flagged for a closer look

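Within a group of lines, 3 levels stood apart from the others by Dixon's test at the 95% level. Dusp1 was 22.0 CPM in WT replicate 4, the highest of the WT lines. Dusp6 was 1291 CPM in WT replicate 3, also the highest of the WT lines. Dusp2 was 1.10 CPM in knockout replicate 2, the highest of the knockout lines, from 42 reads. Of 20 groups examined, 10 genes in each genotype, 3 were picked out. The test's rate of about 1 in 20 by chance assumes normally distributed levels. Levels were tested in CPM without logs, and all 3 were highest values, so the count cannot be set against that rate.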

How the results depend on the processing

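Dusp8 and Dusp16 kept their direction and their call in all 25 alternatives, with adjusted p up to 0.0090 and 0.0082. Members that fell numbered 4 with DESeq2, 5 with limma-voom with sample weights, and 2 to 4 when single lines were left out (4 without knockout replicate 2); members that rose stayed at 0. Genes that rose and fell over all genes numbered 1130 and 977 with DESeq2, 1421 and 1411 with limma-voom with sample weights, 286 and 998 on log2(TPM + 1), and 322 and 981 on log2(TPM + 0.1), where the median of all genes was -0.23 and 24.7% of calls were higher. With single lines left out they ranged from 324 to 649 and from 316 to 592; genes that rose fell short by over 1.5 times without WT replicate 1 (374) and knockout replicates 1 (329), 3 (375) and 7 (324), and genes that fell without knockout replicates 1 (316) and 7 (326). The cause was not tested. The log2 fold change of Dusp5 changed sign on log2(TPM + 1) (-0.073), on log2(TPM + 0.1) (-0.076), without knockout replicate 2 (-0.0062) and without knockout replicate 2 and WT replicate 3 (-0.16); with single lines left out it ran from -0.0062 to 0.40. Between 0.56 and 1.06, the difference of the Dusp16 to Dusp8 ratio with single lines left out was called only without knockout replicate 4. Depth limits Dusp2. No paired analysis was possible because the labels give no replicate numbers that the groups share.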
